A study of Mus musculus with 30 samples.

Results

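The comparison described here is the genotype by day 21 interaction: how far the response to experimental autoimmune encephalomyelitis (EAE) in microglia labelled Atg7 KO differed from that in microglia labelled Atg7 Wt. It was taken as a difference of differences, (day 21 KO minus naive KO) minus (day 21 WT minus naive WT), and rests on 15 of the 30 libraries of the series: 4 naive WT, 4 naive KO, 3 day 21 WT and 4 day 21 KO. All came from C57BL/6 mice with the age label Young. The KO genotype was Atg7fl/fl Cx3cr1CreERT. The WT genotype was Atg7wt/wt Cx3cr1CreERT2, so both carried a tamoxifen-inducible Cre driven from Cx3cr1, and by the protocol both received 3 doses of 4 mg tamoxifen at intervals of 48 h. EAE, a T cell-driven inflammation of the brain and spinal cord, was induced at least 18 days later with recombinant mouse MOG, residues 1 to 125, and pertussis toxin. The EAE scores at day 21 were 2.67 ± 0.577 in WT (SD, n = 3) and 2.94 ± 0.125 in KO (SD, n = 4), on a scale that the labels do not define. Microglia were sorted as live CD11b+ cells with intermediate CD45 and without Ly6G, or by eYFP. By the protocol, lysates of female and male mice were pooled in equal parts. The labels do not say that the libraries of a group came from separate animals, so the p-values measure only the spread between these libraries, which may be technical.

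Atg7 encodes an E1-like enzyme that attaches LC3 to the autophagosome membrane, a step that macroautophagy and LC3-associated phagocytosis both need. Microglia are macrophages resident in brain and spinal cord. In the healthy brain they express a homeostatic set of genes, among them the purine receptor P2ry12, and in EAE they lower this set while interferon-induced and antigen presentation genes rise. Cx3cr1-driven Cre is also active in border-associated macrophages and, until they are replaced from the bone marrow, in monocytes.

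Total counts ran from 4712803 to 11034565 per library, with a median of 6764835, and all 11 microglia and macrophage markers were detected. Principal component 1 held 45.7% of the variance and placed day 21 KO at 66.6 to 70.3, day 21 WT at 15.5 to 25.8 and the naive libraries at -65.8 to -27.6. On component 2, with 20.8%, naive KO 4 stood at -58.0 against 10.7 to 13.8 for the other naive KO libraries, and naive WT 3 at 45.9 against -9.32 to 22.4 for the other naive WT libraries. The summed level of 4 Y-linked genes was 48.8 to 63.8 CPM (counts scaled to library size, with TMM factors) in day 21 WT, 160.2 to 218.2 CPM in day 21 KO and 14.2 to 174.8 CPM in the naive libraries. The lowest and highest naive values were those of naive KO 3 and naive KO 1. The count columns of these libraries and of day 21 WT 3 carry a single identifier, the others of the 4 groups joined identifiers. Whether each library was an equal pool of both sexes was not tested.

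Atg7 measured 26.6, 27.0, 40.1 and 32.8 CPM in naive WT and 16.8, 20.7, 31.8 and 11.4 CPM in naive KO. At day 21 it measured 19.8, 25.3 and 24.6 CPM in WT and 31.7, 31.0, 31.7 and 36.9 CPM in KO, so the libraries labelled KO were all higher there. The gene-level count sums the whole gene and not only its loxP-flanked part, so it does not check the genotype, and every direction below rests on the labels. The interaction for Atg7, as a log2 fold change (log2FC), was 1.14 (SE 0.44, adjusted p = 0.0975); it was called without naive KO 3 and with only the 4 groups in the fit. Cx3cr1, the fractalkine receptor gene whose promoter drives the Cre, measured 3585, 2652, 948 and 3109 CPM in naive WT and 118, 130, 136.4 and 292 CPM in naive KO. At day 21 Cx3cr1 measured 988, 503.1 and 631 CPM in WT and 550.2, 236.5, 341.7 and 90.97 CPM in KO. The naive libraries of the genotypes did not overlap in this gene. It fell in WT (log2FC -1.86, SE 0.50, adjusted p = 0.0100) and measured 0.85 in KO (SE 0.44, adjusted p = 0.120), and its interaction was 2.72 (SE 0.66, adjusted p = 0.0142), a call lost without day 21 WT 2 or day 21 WT 3.

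The genotype by day 21 interaction was called, at an adjusted p under 0.05, for 1343 of 13880 genes tested (9.68%): 655 higher (4.72%) and 688 lower (4.96%) in the KO response. The WT response held 2989 called genes (21.5%), of which 1320 rose (9.51%) and 1669 fell (12%). The KO response held 6272 (45.2%), of which 3123 rose (22.5%) and 3149 fell (22.7%). Of the 655 higher genes, 387 rose in KO with no call in WT, 21.1% fell in WT with no call in KO, 81 rose in both and 25 fell in WT and rose in KO. Of the 688 lower genes, 474 fell in KO with no call in WT, 18.3% fell in both, 50 rose in WT with no call in KO and 16 rose in WT and fell in KO. The median interaction over all 13880 genes was 0.01. Every list count below is to be set against these shares over all genes, and a count near them is no result about its list.

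**Figure D1:**
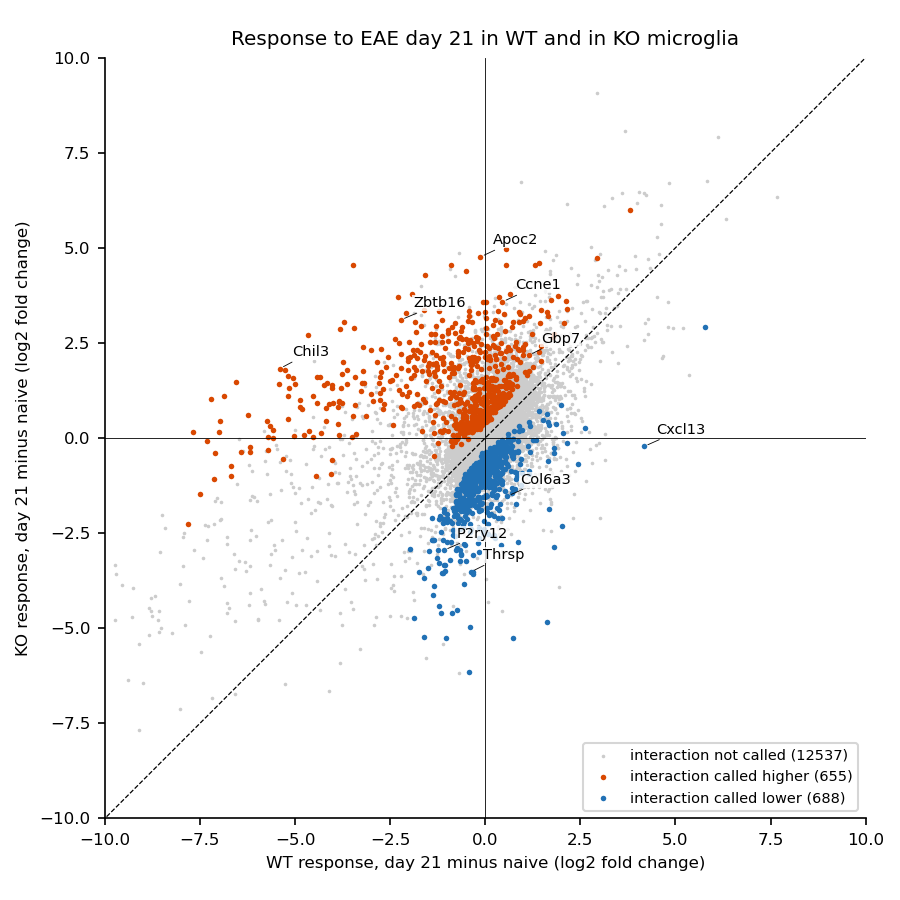
Each point is 1 of 13880 genes, with the log2 fold change of day 21 over naive in WT on the x axis and in KO on the y axis; orange points (655) are called higher, blue points (688) lower, and the dashed line marks equal response. Chil3 lies far to the left, having fallen in WT, and P2ry12 and Thrsp lie below 0 on the y axis.

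Single libraries set how many genes were called in the genotype by day 21 interaction. The count was 588 without naive WT 3, 563 without day 21 WT 2, 514 without day 21 WT 3 and 862 without day 21 KO 2, and 434 genes (139 higher, 295 lower) kept their call and direction whichever of the 15 libraries was left out. The summed levels of monocyte and neutrophil markers varied between groups and, among naive libraries, widely within them. Which cells gave these transcripts was not tested. The 14 monocyte markers summed to 299.9 to 2581 CPM in naive WT, 42.5 to 645 CPM in naive KO, 194.3 to 527.7 CPM in day 21 WT and 2320 to 3185 CPM in day 21 KO. Fn1 alone, given below, made up most of the sum in day 21 KO. Of the 14 markers, 3 rose and 1 fell in the KO response. The 16 neutrophil markers summed to 2039 to 17150 CPM in naive WT, 644.8 to 3120 CPM in naive KO, 700.6 to 725.2 CPM in day 21 WT and 485.0 to 607.6 CPM in day 21 KO. No marker of either list was at 0 counts in any of the 4 groups. With the summed monocyte level as a covariate, an alternative chosen after seeing the data, 42 genes were called, 29 of them among the 1343. That covariate is made of outcome genes, and 9 of the 14 were called higher in this interaction. It does not overlap between the day 21 groups, so it takes up part of the contrast itself. A call lost or a sign changed with it therefore does not tell why. With the neutrophil level as a covariate 1039 were called, and with the Y-linked level 637. Of the 19 process lists that held a call, 2 kept one with the monocyte covariate, namely Upk1b among homeostatic genes and Cxcl13 among cytokines, and the median interaction moved from -0.95 to -0.07 in the homeostatic list, from 0.64 to 0.33 in the interferon list, from 0.89 to 0.33 in the GTPases and from 2.69 to -0.24 in cell cycle genes. With only these 4 groups in the fit 2516 genes were called, with no filter on low counts 845 and with the i5 index number of the labels as a block 926. In bulk libraries fewer cells of a type and less RNA per cell cannot be told apart.

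**Figure D2:**
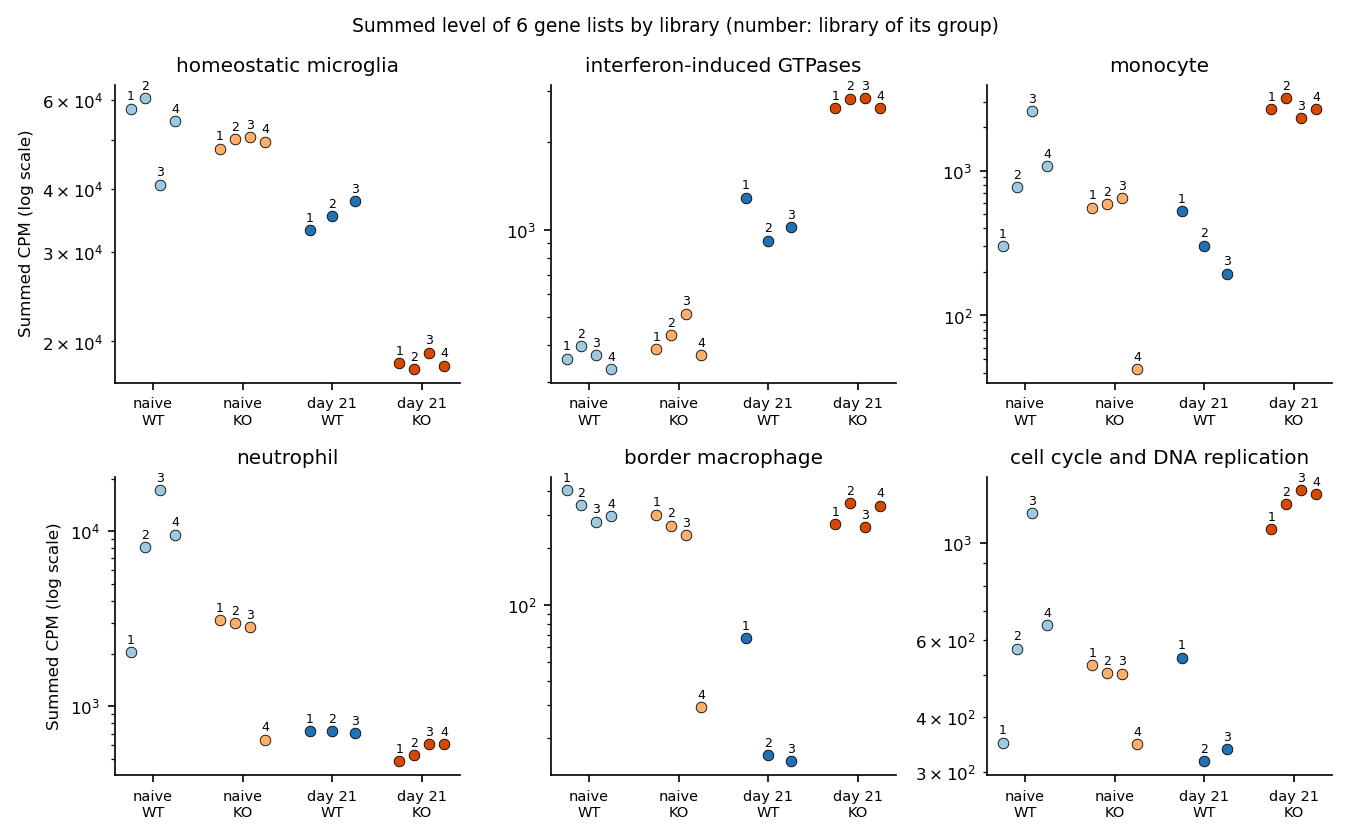
Summed CPM of 6 gene lists on log axes, 1 numbered point per library. Day 21 KO is apart from the other libraries for homeostatic genes (17630 to 19020) and GTPases (2620 to 2839), whereas for monocyte markers naive WT 3 (2581) lies among the day 21 KO libraries and naive KO 4 (42.5) is lowest.

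**Figure D3:**
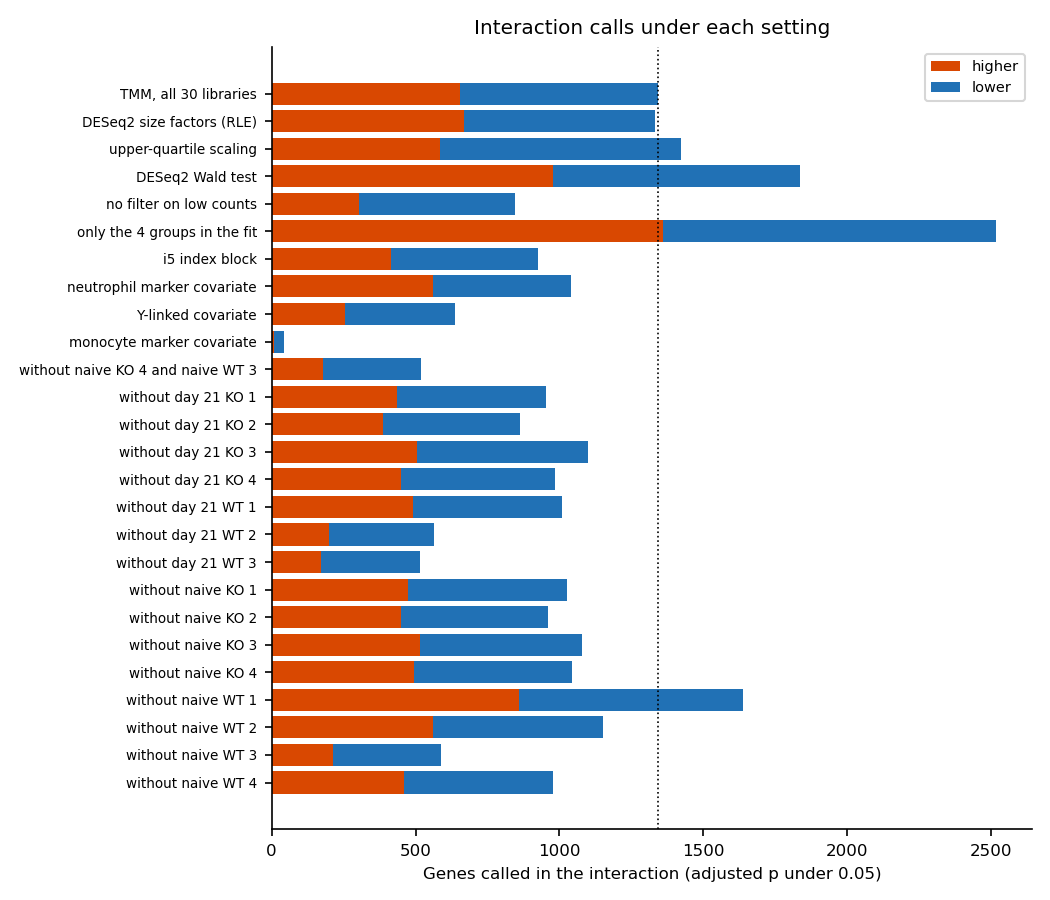
Genes called in the genotype by day 21 interaction (x axis, adjusted p under 0.05; orange higher, blue lower) under each setting, with a dotted line at 1343. The bars run from 42 with the monocyte marker covariate to 2516 with only the 4 groups in the fit.

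Many homeostatic microglial genes fell further in KO. Of 28 tested, 14 were lower in the interaction and 1, Cx3cr1, higher. The median interaction was -0.95. In WT 13 members fell, with a median of -0.49, and in KO 25 fell, with a median of -1.42. Their summed level was 40790 to 60480 CPM in naive WT, 48030 to 50640 CPM in naive KO, 33200 to 37800 CPM in day 21 WT and 17630 to 19020 CPM in day 21 KO. P2ry12, the ADP receptor that guides process extension, measured 2946, 3205, 2033 and 2697 CPM in naive WT and 2525, 2584, 2791 and 2872 CPM in naive KO. It measured 1172, 1242 and 1429 CPM in day 21 WT and 349.7, 324.1, 374 and 347 CPM in day 21 KO. Naive levels thus overlapped between genotypes and day 21 levels did not. The interaction for P2ry12 was -1.86 (SE 0.35, adjusted p = 0.00190).

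Gpr34, a lysophosphatidylserine receptor, measured 523, 572 and 700 CPM in day 21 WT and 113, 103.3, 130 and 109 CPM in day 21 KO, from 1047 to 1509 CPM in all naive libraries. Its interaction was -2.27 (SE 0.33, adjusted p = 2.02e-04). Slc2a5, a fructose transporter, fell from 373 ± 76.6 to 184 ± 17.8 CPM in WT (SD, n = 4 and 3) and from 388 ± 11.3 to 58.7 ± 4.47 CPM in KO (SD, n = 4 and 4), an interaction of -1.71 (SE 0.31, adjusted p = 0.00185). Upk1b, a tetraspanin of the uroplakin family, measured 25.6, 23.7 and 24.5 CPM in day 21 WT and 2.35, 6.68, 5.41 and 6.22 CPM in day 21 KO. Its interaction of -2.43 (SE 0.29, adjusted p = 1.58e-05) was the lowest in the list. The smallest fold among the 14 was that of Sall1, a microglial transcription factor, at -0.87. In every leave-out 9 of the 14 kept their call, and the count was 9 without naive WT 3, day 21 WT 2 or day 21 WT 3. It was 1 (Upk1b) with the monocyte covariate, where 5 were lower at an unadjusted p under 0.05, 9 with no filter on low counts, with the Y-linked covariate or without naive KO 4 and naive WT 3 together, and 23 with only the 4 groups in the fit. Csf1r, the receptor that microglia need for survival, had an interaction of -0.70 that missed the threshold (SE 0.27, adjusted p = 0.0918), except with only the 4 groups in the fit (adjusted p = 0.00192).

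**Figure D4:**
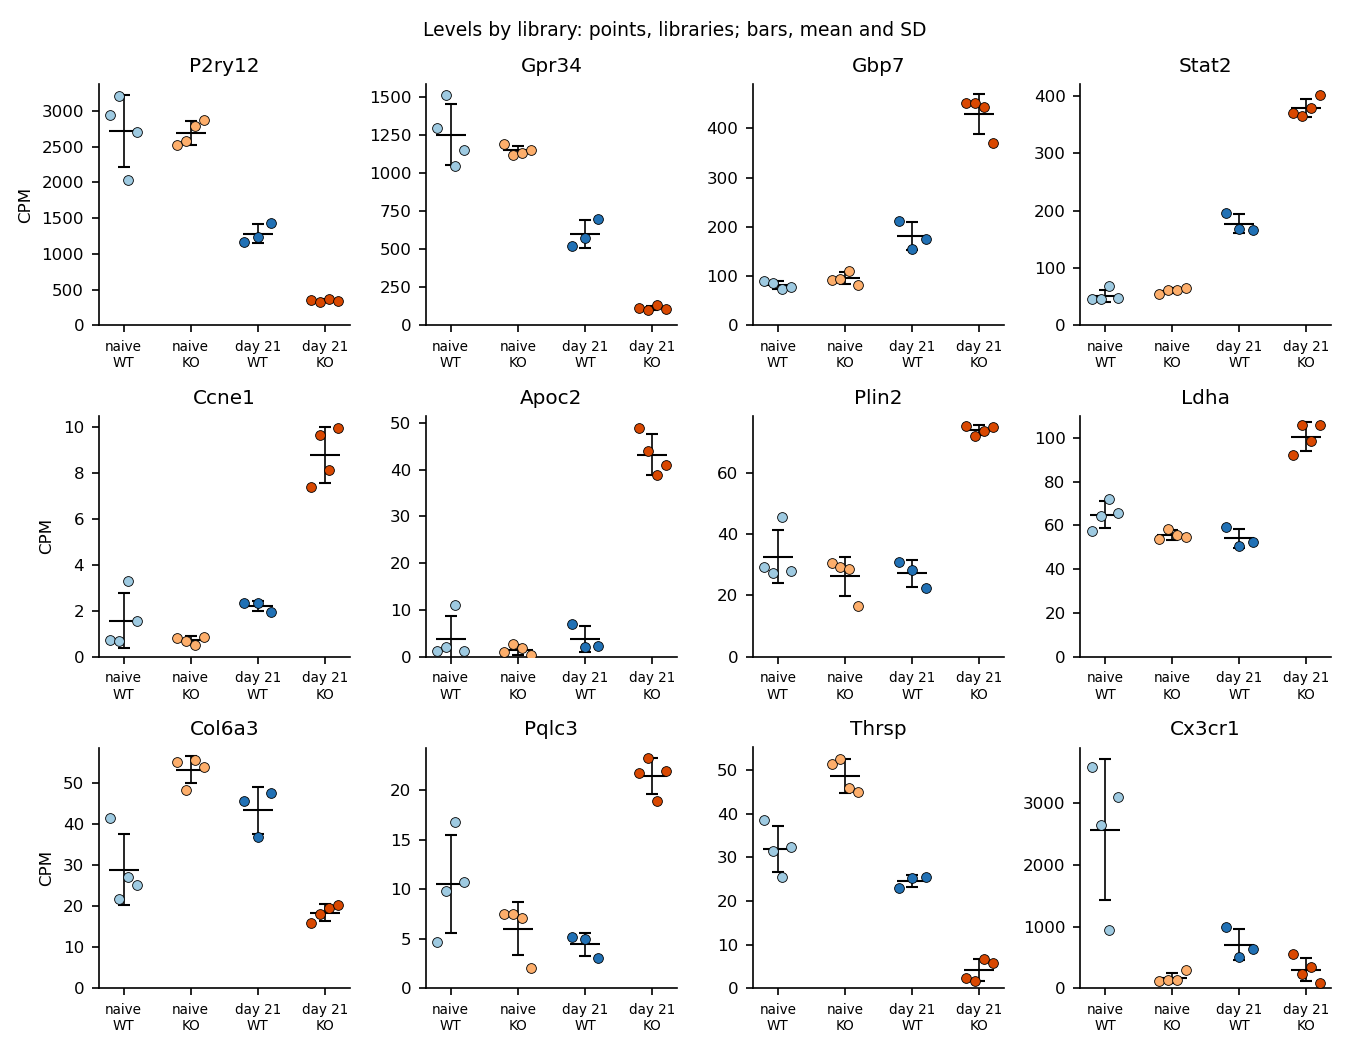
CPM of 12 genes by library, with points for libraries and bars for the group mean and SD (n = 4, except n = 3 for day 21 WT). P2ry12, Gpr34 and Thrsp were lowest and Gbp7, Stat2, Ccne1, Apoc2, Plin2, Ldha and Pqlc3 highest in day 21 KO, and in Cx3cr1 the naive libraries of the genotypes do not overlap.

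Interferon-induced genes rose in both genotypes, and a part of them rose further in KO. Type I interferon signals through a complex that holds Stat2 and Irf9 and binds the interferon-stimulated response element, searched here as GAAA, any 2 bases, GAAA. Interferon-gamma signals through the gamma-activated sequence, searched here as TTCNNNGAA. Of 34 genes of the type I interferon list, 29 rose in WT and 33 in KO, and 9 were higher in the interaction (median 0.64). Among 16 interferon-induced GTPases, proteins that attack the vacuoles of intracellular pathogens, 13 rose in WT and 16 in KO, and 7 were higher in the interaction (median 0.89). In neither list was a member lower, by edgeR at an unadjusted p under 0.05 (0) or by DESeq2 (0). All 18 GTPases of the list, 2 of them too low to test, summed to 331.3 to 515.1 CPM in the naive libraries, 918.4 to 1289 CPM in day 21 WT and 2620 to 2839 CPM in day 21 KO.

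The promoters of 5 list members with a higher interaction are shown to place these elements; each run of 120 bases ends at or before the annotated start, on the gene's strand, from RefSeq promoters of GRCm38.p6. Capitals mark every match to GAAA, any 2 bases, GAAA or, where the match is on the opposite strand, to its reverse complement.
Gbp7, chr3:142530216-142530335, plus strand: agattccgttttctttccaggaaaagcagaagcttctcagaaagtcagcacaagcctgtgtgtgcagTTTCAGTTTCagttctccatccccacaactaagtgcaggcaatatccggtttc
Irgm1, chr11:48871421-48871540, minus strand: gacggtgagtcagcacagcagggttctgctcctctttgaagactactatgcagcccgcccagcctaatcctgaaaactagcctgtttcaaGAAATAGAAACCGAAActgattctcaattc
Igtp, chr11:58199436-58199555, plus strand: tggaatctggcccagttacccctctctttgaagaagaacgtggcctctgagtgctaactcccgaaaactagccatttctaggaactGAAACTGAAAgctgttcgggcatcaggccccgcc
Oas3, chr5:120777670-120777789, minus strand: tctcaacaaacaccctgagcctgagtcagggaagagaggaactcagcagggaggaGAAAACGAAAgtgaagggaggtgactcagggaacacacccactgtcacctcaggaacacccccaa
Stat2, chr10:128270248-128270367, plus strand: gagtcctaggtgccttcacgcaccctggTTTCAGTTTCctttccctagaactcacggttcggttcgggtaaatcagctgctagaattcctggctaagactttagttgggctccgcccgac
The first matched base lay 53 bases before the start in Gbp7, 30 in Irgm1, 34 in Igtp, 75 in Oas3 and 222 in Stat2, and Irgm1 held 2 overlapping matches. On either strand of the 300 bases from 250 before to 50 after a start, this element was present in 9 of 10 GTPase genes with a sequence, in 14 of 24 interferon list genes and in 3.99% of 27025 genes. It was present in 7.83% of 498 genes called higher and in 2.95% of 508 called lower. TTCNNNGAA was present in 6 of the 10 GTPase genes, 6 of the 24 interferon list genes and 9.55% of all. These are matches of letters, described without a test.

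Gbp7, a guanylate-binding protein, measured 211.3, 154.5 and 176 CPM in day 21 WT and 452, 452, 443 and 370 CPM in day 21 KO, from 73.6 to 111 CPM in the naive libraries. The day 21 groups did not overlap, and the interaction was 1.03 (SE 0.17, adjusted p = 6.57e-04). Irgm1, a regulator of the immunity-related GTPases with a part in autophagy, measured 124.1, 97.7 and 117 CPM in day 21 WT and 212.3, 212.4, 226 and 211.3 CPM in day 21 KO. Its interaction was 0.85 (SE 0.16, adjusted p = 0.00207). The other called GTPases were Igtp, Gbp9, Gbp3, Gbp5 and Ifi47. Stat2 measured 196, 167.9 and 167 CPM in day 21 WT and 370, 365, 379 and 402 CPM in day 21 KO, from 45.3 to 67.8 CPM in the naive libraries (interaction 0.88, SE 0.22, adjusted p = 0.0118). Parp14, a mono-ADP-ribosyltransferase, had an interaction of 0.69 (SE 0.16, adjusted p = 0.00997) and Trim30a, an inhibitor of Toll-like receptor signalling, 0.57 (SE 0.13, adjusted p = 0.00820).

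Oas3, which senses double-stranded RNA, measured 4.12, 15.5, 23.3 and 19.4 CPM in naive WT and 17.4, 16.4 and 13.9 CPM in day 21 WT, a WT response of 0.03 (SE 0.49, adjusted p = 0.978). In KO it went from 8.18, 8.89, 12.5 and 1.91 CPM to 52.9, 72.0, 51.7 and 61 CPM, and the interaction was 2.87 (SE 0.68, adjusted p = 0.0115). Oas3, Parp14, Stat2, Trim30a and Herc6 kept their call in every leave-out, as did Gbp7 and Irgm1 among the GTPases. With the monocyte covariate all of these lost it and both lists had 0 calls by edgeR, where 5 interferon genes and 4 GTPases were higher at an unadjusted p under 0.05. The interferon list had 5 calls without naive KO 1, naive WT 3, day 21 KO 2, day 21 KO 4 or any 1 of the day 21 WT libraries, and 14 without naive WT 1. The GTPases had 4 without naive WT 3, 2 without day 21 WT 2 and 3 without day 21 WT 3. With no filter on low counts or with the Y-linked covariate the interferon list had 5 and the GTPases 4, and the GTPases had 3 without naive KO 4 and naive WT 3 together.

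**Figure D5:**
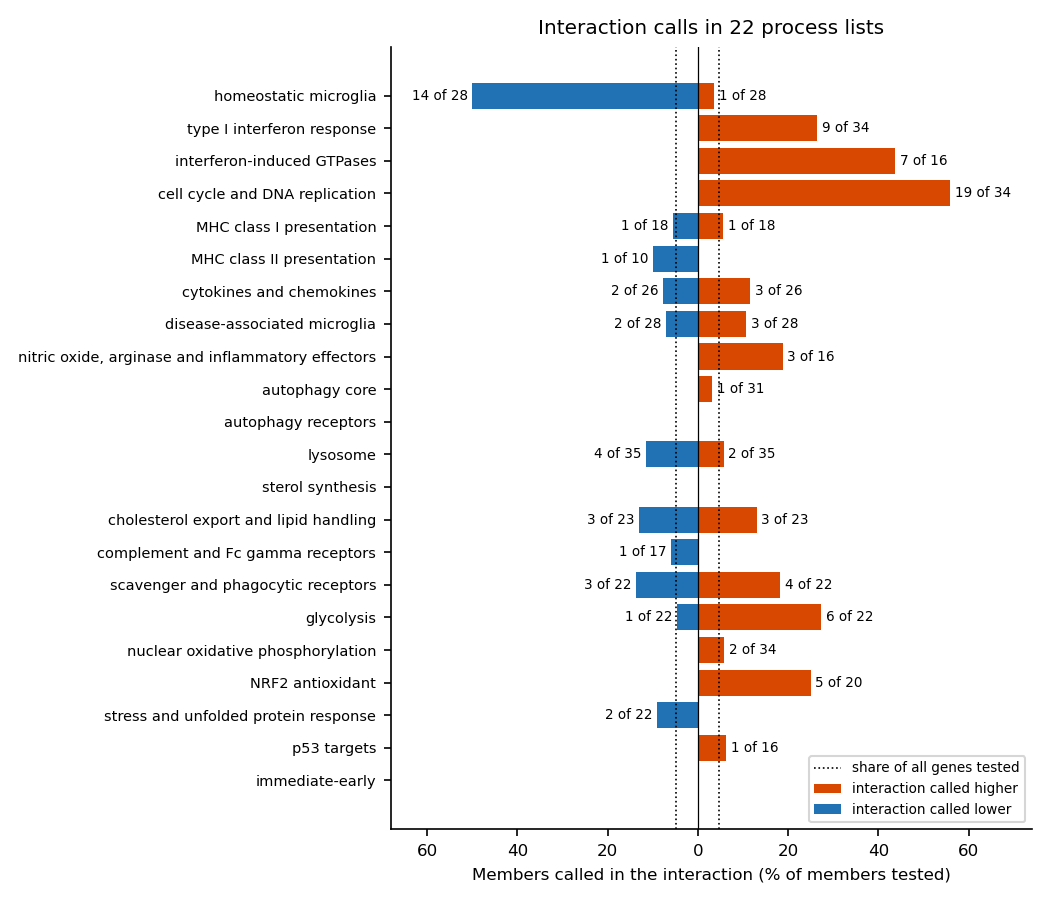
Members called higher (orange, right) or lower (blue, left) in the interaction as a percentage of the members tested in 22 process lists; dotted lines mark the shares over all genes, 4.72% higher and 4.96% lower. Cell cycle genes, interferon-induced GTPases, glycolysis and interferon genes extend farthest to the right and homeostatic genes to the left, while sterol synthesis, autophagy receptors and immediate-early genes have no bar.

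Cell cycle and DNA replication genes were higher in the interaction for 19 of 34 tested (median 2.69). In KO 25 rose. In WT 0 were called by edgeR, where 5 fell at an unadjusted p under 0.05 and DESeq2 called 2 lower, and the median was -0.86. The summed level was 1078 to 1322 CPM in day 21 KO, 316.6 to 546.9 CPM in day 21 WT and 347.3 to 526.2 CPM in naive KO; in naive WT it was 1171 CPM in library 3 and 349.6 to 649.6 CPM in the others. Ccne1, cyclin E1 of the G1 to S transition, measured 0.735, 0.704, 3.29 and 1.57 CPM in naive WT, 2.35, 2.34 and 1.96 CPM in day 21 WT, 0.515 to 0.880 CPM in naive KO and 7.38, 9.65, 8.11 and 9.93 CPM in day 21 KO. Day 21 KO lay above every other library, and the interaction was 3.13 (SE 0.70, adjusted p = 0.00706). Pole, the catalytic subunit of DNA polymerase epsilon, measured 8.71, 6.00 and 4.02 CPM in day 21 WT and 23.1, 28.8, 32.0 and 32.9 CPM in day 21 KO (interaction 2.39, SE 0.63, adjusted p = 0.0188). Birc5 (survivin) had an interaction of 3.67 (SE 1.04, adjusted p = 0.0299) and Mcm5, of the replicative helicase, 1.77 (SE 0.51, adjusted p = 0.0319).

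Only Ccne1 of this list kept its call in every leave-out. The list had 1 call without naive WT 3, day 21 WT 2 or day 21 WT 3, between 3 and 10 without naive WT 4, any 1 of the naive KO or any 1 of the day 21 KO libraries, and 0 with the monocyte covariate (0 also at an unadjusted p under 0.05). It had 4 with the i5 index as a block, where Mcm5 was lost, 2 with no filter on low counts, 1 with the Y-linked covariate or without naive KO 4 and naive WT 3 together and 31 with only the 4 groups in the fit.

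Genes called in opposite directions in the genotypes included Col6a3, a chain of type VI collagen. It measured 41.5, 21.8, 27.1 and 25.1 CPM in naive WT and rose to 45.5, 36.8 and 47.7 CPM at day 21. In KO it fell from 55.2, 48.4, 55.6 and 54.0 CPM to 15.9, 18.0, 19.7 and 20.3 CPM, and the interaction was -2.11 (SE 0.23, adjusted p = 3.38e-06). Ajm1, an apical junction component, rose from 31.6 ± 3.72 to 54.2 ± 5.03 CPM in WT (SD, n = 4 and 3) and fell from 59.1 ± 5.13 to 23.4 ± 1.02 CPM in KO (SD, n = 4 and 4), with an interaction of -2.11 (SE 0.26, adjusted p = 2.73e-05). Lox, which cross-links collagen, had an interaction of -4.67 (SE 0.67, adjusted p = 1.52e-04) at levels of at most 7.59 CPM. The cadherin Cdh23 (-1.25) and the collagen prolyl hydroxylase P3h3 (-1.60) moved the same way. In Col6a3, Ajm1 and Lox the naive KO mean (53.3, 59.1 and 5.78 CPM) was above the naive WT mean (28.9, 31.6 and 1.59 CPM), so the genotypes did not start from 1 level.

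In the other direction, Prim2, a DNA primase subunit, fell in WT from 14.7, 15, 14.1 and 12.5 CPM to 10.2, 7.76 and 9.07 CPM. In KO it rose from 10.5, 9.57, 6.95 and 10.1 CPM to 18.1, 17.4, 23.3 and 13.3 CPM (interaction 1.60, SE 0.30, adjusted p = 0.00185). Pqlc3, a PQ-loop membrane protein, had 18.9 to 23.2 CPM in day 21 KO against 3.09 to 5.19 CPM in day 21 WT (interaction 3.09, SE 0.58, adjusted p = 0.00200). Tpm4, an actin-binding tropomyosin, had an interaction of 1.42, and the zinc finger genes Zbtb42 and Zbtb16 had 4.02 and 5.33. All 10 genes kept their interaction call in every leave-out, and Lox, Col6a3 and Ajm1 also with the monocyte covariate. For Zbtb16, naive WT 3 stood at 15.8 CPM against 2.35 to 3.42 CPM in the other naive WT libraries.

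In the list of cholesterol export and lipid handling, 3 of 23 members were higher and 3 lower (median 0.27). Apoc2, the activator of lipoprotein lipase, measured 7.03, 2.05 and 2.24 CPM in day 21 WT and 49.0, 44.0, 38.8 and 41 CPM in day 21 KO, from 0.293 to 11.1 CPM in the naive libraries. Its interaction was 4.89 (SE 0.96, adjusted p = 0.00347). Plin2, which coats lipid droplets, measured 30.8, 28.4 and 22.2 CPM in day 21 WT and 75.2, 71.8, 73.6 and 75 CPM in day 21 KO (interaction 1.77, SE 0.40, adjusted p = 0.00866). Cd36, a fatty acid and oxidised lipoprotein receptor, was also higher (2.12). The 3 lower genes were Npc1, a lysosomal cholesterol exporter (-0.63), Lpcat3, a phospholipid acyltransferase (-0.71), and Mylip, which targets the LDL receptor for breakdown (-0.58). Apoc2 and Plin2 kept their call in every leave-out. None of the lower genes did: they fell to 1 call without day 21 WT 1, naive KO 4 or day 21 KO 4 and to 0 without naive KO 3, naive WT 3, day 21 WT 2 or day 21 WT 3. DESeq2 called 6 higher.

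Among 22 scavenger and phagocytic receptors, Msr1 (3.63), Cd163 (3.45), Cd36 and Scarb1 (0.72) were higher and Itgb3 (-0.77), Itgb5 (-0.80) and Trem2 (-0.84) lower (median 0.01). Msr1, the class A scavenger receptor, rose in KO to 64.9 to 81.4 CPM, with all other libraries at 15.2 CPM or below. Trem2, the lipid-sensing receptor of disease-associated microglia, measured 644, 787 and 726 CPM in day 21 WT and 356, 379, 419 and 459 CPM in day 21 KO (adjusted p = 0.0380). The higher calls were 2 without naive WT 3, 1 without day 21 WT 2 and 0 without day 21 WT 3. The lower calls were 1 without naive KO 1, naive KO 2, naive WT 3, naive WT 4, day 21 KO 1, day 21 KO 2 or day 21 WT 2, and 0 without day 21 WT 3. With the Y-linked covariate there were 2 higher and 1 lower.

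Of 28 disease-associated microglia genes, 8 rose and 2 fell in WT and 13 rose and 8 fell in KO, and in the interaction 3 were higher and 2 lower (median -0.22). Timp2, a metalloproteinase inhibitor, measured 453, 512 and 520 CPM in day 21 WT and 246, 266, 257 and 266 CPM in day 21 KO (interaction -1.05, SE 0.22, adjusted p = 0.00394). Lgals3, galectin-3, measured 18.8, 8.79 and 11.5 CPM in day 21 WT and 95.3, 120, 83.8 and 94.1 CPM in day 21 KO, but 8.09, 36.6, 86.1 and 37.5 CPM in naive WT (interaction 3.98, SE 0.94, adjusted p = 0.0120). Trem2 was the other lower member, and the chemokine Ccl6 (0.87) and the NADPH oxidase subunit Cybb (3.23) the other higher ones. Timp2 and Lgals3 kept their call in every leave-out. Ccl6 kept it only without naive KO 1, 2 or 3, naive WT 1 or day 21 KO 3, Cybb only without naive KO 3 or 4 or naive WT 1 or 2, and Trem2 only without naive WT 2, naive KO 3 or 4 or day 21 KO 3 or 4 or day 21 WT 1. The lower calls of the list rose to 4 without naive KO 4 or by DESeq2, 5 without naive KO 4 and naive WT 3 together and 6 with only the 4 groups in the fit, and the higher calls were 1 with the i5 index as a block or the Y-linked covariate.

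Of 22 glycolysis genes 6 were higher and 1, Ldhb (-0.90), lower (median 0.54), with 10 rising in KO and 3 in WT. Ldha, the lactate dehydrogenase subunit that favours lactate formation, measured 59.1, 50.5 and 52.5 CPM in day 21 WT and 92.3, 106, 98.4 and 106 CPM in day 21 KO, from 53.6 to 71.9 CPM in the naive libraries. Day 21 KO lay above all other libraries, and the interaction for Ldha was 1.12 (SE 0.23, adjusted p = 0.00433). Hexokinase Hk3 (0.96), aldolase Aldoa (0.87) and pyruvate kinase Pkm (1.40) were also higher. Only Ldha kept its call in every leave-out; the list had 2 higher calls without naive WT 3, 1 without day 21 WT 2, 2 without day 21 WT 3, 3 with the Y-linked covariate and 10 with only the 4 groups in the fit. Ldhb was lost without naive KO 1 or 2, naive WT 3 or 4, day 21 KO 1 or 2 or day 21 WT 2 or 3.

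NRF2-regulated antioxidant genes were higher for 5 of 20 (median 0.52), with 10 rising in KO and 6 falling in WT. Sod2, mitochondrial superoxide dismutase, measured 24.3, 24.0 and 21.3 CPM in day 21 WT and 69.4, 69.6, 52.1 and 44.1 CPM in day 21 KO, from 21 to 29.3 CPM in the naive libraries (interaction 1.35, SE 0.27, adjusted p = 0.00285). Thioredoxin Txn1 measured 9.88, 8.05 and 7.85 CPM in day 21 WT and 28.7, 29.9, 26.6 and 29.2 CPM in day 21 KO (interaction 2.47, SE 0.58, adjusted p = 0.0103). Its reductase Txnrd1 had 1.00, the peroxidase Gpx1 0.84 and the peroxiredoxin Prdx6 2.15. Sod2, Txn1 and Txnrd1 kept their call in every leave-out, and the list had 3 calls without day 21 WT 1, naive WT 3 or day 21 WT 3 or with the Y-linked covariate, 2 without naive KO 4 and naive WT 3 together and 8 by DESeq2. In oxidative phosphorylation 2 of 34 nuclear genes (5.88%, against 4.72% of all genes) were higher, Cox5a of complex IV (1.23) and Sdhd of complex II (0.84). Only Cox5a was called without naive WT 3, naive KO 4, day 21 WT 2 or day 21 WT 3.

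Among 26 cytokines and chemokines 3 were higher and 2 lower (median 0.36). Cxcl13, a B cell attractant, measured 0.294, 0.235, 2.54 and 0 CPM in naive WT and 10.2, 16.4 and 17.5 CPM in day 21 WT, and 2.04, 11.6, 21 and 2.20 CPM in naive KO and 4.24, 10.6, 7.96 and 9.19 CPM in day 21 KO. It rose in WT and its KO groups overlapped, and the interaction was -4.40 (SE 1.06, adjusted p = 0.0131). Il6 was the other lower gene (-1.35), and the neutrophil attractant Cxcl2 (4.12), the interleukin-1 receptor antagonist Il1rn (2.78) and Ccl6 were higher. Cxcl13 kept its call in every leave-out and with the monocyte covariate. The higher calls were 0 without naive WT 3, day 21 WT 2 or day 21 WT 3 and 1 without naive WT 4, day 21 KO 1 or day 21 KO 2, and Il6 was lost without naive KO 1, naive KO 4, naive WT 3, day 21 KO 4 or any 1 of the day 21 WT libraries. With the i5 index as a block 1 was higher, with the Y-linked covariate 0, and with only the 4 groups in the fit 7.

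Of 16 genes of the nitric oxide, arginase and inflammatory effector list, Arg2, Cybb and Chil3 were higher (median 1.97). Arg2, mitochondrial arginase, had group means of 3.84 ± 1.33 CPM in naive WT (SD, n = 4), 1.71 ± 1.23 in naive KO (SD, n = 4), 0.112 ± 0.193 in day 21 WT (SD, n = 3) and 3.76 ± 1.67 in day 21 KO (SD, n = 4). With 2 counts in all over day 21 WT, its fitted interaction of 6.27 (adjusted p = 0.0077) rests on very few reads. Arg1, the cytosolic arginase, measured 154.8 to 234.3 CPM in the 4 day 21 KO libraries and 13.9, 2.20 and 2.06 CPM in day 21 WT, with 0 to 10.9 CPM in the naive libraries. It rose in KO (log2FC 6.73, adjusted p = 7.18e-04), but the interaction missed the threshold (5.80, SE 2.23, adjusted p = 0.0971), except with only the 4 groups in the fit (adjusted p = 0.0311). Nos2, inducible nitric oxide synthase, measured 53.7, 47.1, 30.2 and 39.6 CPM in day 21 KO and 4.86, 1.02 and 1.31 CPM in day 21 WT, with at most 6 counts in any naive library, and the interaction of Nos2 had an adjusted p of 0.107, against 0.0229 by DESeq2 and 0.0246 with only the 4 groups in the fit. Cybb and Chil3 were lost, leaving 1 call, without naive KO 1, naive KO 2, naive WT 3, naive WT 4, day 21 KO 1, day 21 KO 2, day 21 KO 4, day 21 WT 2 or day 21 WT 3.

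Most antigen presentation genes rose in each genotype. Of 18 MHC class I genes 15 rose in WT and 17 in KO (median interaction 0.07). In the interaction 1 was higher (Psmb8, an immunoproteasome subunit, 0.56) and 1 lower, against 4.72% higher and 4.96% lower over all genes. The lower one, H2-M3, which presents formylated peptides, measured 71.3, 100.7 and 85.5 CPM in day 21 WT and 66.7, 65.3, 65.7 and 73.3 CPM in day 21 KO, groups that overlap. From naive means of 28 ± 5.08 CPM in WT and 44.0 ± 8.23 CPM in KO (SD, n = 4 each), the interaction for H2-M3 was -0.99 (SE 0.21, adjusted p = 0.00464). Among 10 MHC class II genes 7 rose in WT, and 8 rose and 1 fell in KO. In the interaction 1, H2-Ob, was lower (median -0.04). None was higher, by edgeR at an unadjusted p under 0.05 (0) or by DESeq2 (0). H2-Ob was the member that fell in KO (log2FC -1.18, adjusted p = 3.60e-06), and it was not called in WT (0.29, adjusted p = 0.275). H2-Ob, a subunit of the modulator H2-O, measured 27.8, 31.6 and 33.8 CPM in day 21 WT and 16.6, 12.2, 15.3 and 14.1 CPM in day 21 KO (interaction -1.46, SE 0.25, adjusted p = 7.79e-04). Psmb8 kept its call only without naive WT 1, naive KO 2 or day 21 KO 1, and without naive WT 3 the class I list had 4 lower calls.

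Among called genes with a group mean of at least 5 CPM and over 10 counts in each group, the 10 highest interactions were Chil3 (7.23), Ly6c2 (6.81), Trem1 (6.19), Hp (6.06), Clec12a (6.04), Clec4d (5.95), S100a6 (5.94), Gda (5.88), Lrrk2 (5.84) and S100a11 (5.75). All 10 were called as falling in WT, and none was called in the KO response. Their KO response ran from -0.37 in Hp to 1.83 in Chil3. Chil3, a chitinase-like protein of monocytes and neutrophils, measured 37.0, 170, 687 and 228 CPM in naive WT, 63.5, 56.3, 46.5 and 2.64 CPM in naive KO, 19.4, 1.02 and 1.40 CPM in day 21 WT and 185, 190, 101.6 and 125.9 CPM in day 21 KO. Its call (SE 2.15, adjusted p = 0.0383) was kept only without naive WT 1, naive WT 2, day 21 WT 1 or day 21 KO 3. Clec4d, a C-type lectin receptor, measured 13.7, 13.9, 13.1 and 15.6 CPM in day 21 KO and 0.670, 0.586 and 0.468 CPM in day 21 WT, and 4.12, 15.2, 16.3 and 11.4 CPM in naive WT (SE 1.40, adjusted p = 0.0115). Among the naive libraries all 10 genes were highest in naive WT 3 and lowest in naive KO 4. These libraries had the highest and lowest naive monocyte marker sums (2581 and 42.5 CPM). Chil3, Ly6c2, Hp and S100a6 are themselves markers in that sum, so part of this match is built in. The part of monocyte transcripts in the result was not tested. All 10 lost their call without day 21 WT 3, and all but Clec4d also without naive WT 3 or day 21 WT 2.

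By the same rule the lowest interactions, after Lox and Cxcl13, were Adcy8 (-3.77), Camk2a (-3.53), Dlg5 (-3.23), St8sia6 (-3.20), Thrsp (-3.14), Gp9 (-2.86), Ajuba (-2.84) and Tmem204 (-2.75). Thrsp, a regulator of lipogenesis, measured 22.9, 25.2 and 25.5 CPM in day 21 WT and 2.35, 1.67, 6.76 and 5.78 CPM in day 21 KO, from 25.6 to 52.6 CPM in the naive libraries (SE 0.40, adjusted p = 4.44e-05). Adcy8, an adenylyl cyclase, measured 6.03, 6.74 and 5.42 CPM in day 21 WT and 0.628, 0.556, 0.300 and 0.741 CPM in day 21 KO (SE 0.57, adjusted p = 2.24e-04). Dlg5, a scaffold protein, did not overlap between the naive genotypes, at 18.9, 18.9, 14.9 and 6.31 CPM in KO and 3.68, 2.35, 5.98 and 2 CPM in WT (SE 0.51, adjusted p = 4.54e-04). Of these 10 all but Camk2a kept their call in every leave-out, and Lox, Cxcl13, Dlg5, St8sia6, Thrsp and Ajuba kept it with the monocyte covariate. Camk2a, a neuronal kinase, was lost without naive WT 3 or 4, naive KO 4, day 21 KO 1, 2 or 3 or day 21 WT 2 or 3, and the 12 other markers of the neuron list summed to 22.8 to 62.96 CPM in day 21 WT, 4.74 to 10.4 CPM in day 21 KO and 4.93 to 40.6 CPM in the naive libraries; their part in the result was not tested.

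Of 31 core autophagy genes 1 (3.23%, against 4.72% of all genes) was higher in the interaction, Uvrag of the class III PI3-kinase complex (0.40, SE 0.12, adjusted p = 0.0336), and the median was 0.04. It was lost without naive KO 1 or 2, naive WT 3, day 21 KO 3 or 4 or day 21 WT 2 or 3, and 2 genes were called without naive WT 1, naive WT 2 or naive KO 3, 2 by DESeq2 and 5 with only the 4 groups in the fit. Among 13 autophagy receptors edgeR called 0, with 1 lower at an unadjusted p under 0.05 and 0 by DESeq2. Sqstm1 (p62), a receptor that autophagy itself degrades, measured 152.1, 203.7 and 192 CPM in day 21 WT and 178, 178, 153.6 and 155 CPM in day 21 KO (interaction -0.12, SE 0.16, adjusted p = 0.682). In 23 sterol synthesis genes edgeR called 0, with 2 higher and 1 lower at an unadjusted p under 0.05 and 0 by DESeq2. In 26 immediate-early genes it called 0, with 3 higher and 2 lower unadjusted and 1 higher by DESeq2.

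Lysosomal genes fell in KO for 13 of 35 and rose for 8, while 7 rose in WT. In the interaction 2 were higher and 4 lower (median -0.21). Over all genes tested 22.7% fell and 22.5% rose in KO, and 9.51% rose in WT. The interaction was called higher for 4.72% of all genes and lower for 4.96%. Tfe3, a transcription factor of lysosomal genes, measured 196, 165.9 and 163.2 CPM in day 21 WT and 132.5, 137.5, 135 and 154.1 CPM in day 21 KO (interaction -0.51, SE 0.12, adjusted p = 0.00983). Atp6v1h, a subunit of the proton pump, was higher (0.65), as was cathepsin Ctsc (0.48), and Npc1 and cathepsin Ctsf (-0.92) were lower. The lower calls were 2 without naive KO 3 and 1 without naive WT 3, day 21 WT 2 or day 21 WT 3; Ctsc was lost without naive WT 2, day 21 WT 2 or day 21 WT 3. With only the 4 groups in the fit 11 were lower, and with the Y-linked covariate 1. In the unfolded protein response 2 of 22 (9.09%, against 4.96% of all genes) were lower, Herpud1 (-0.81) and the chaperone Dnajb9 (-0.65). Dnajb9 kept its call only without naive WT 1, naive WT 2 or day 21 WT 1. The death receptor Fas (2.19) was the 1 higher of 16 p53 targets (6.25%, against 4.72% of all genes). Its call was lost without naive KO 1, 2 or 4, naive WT 3, day 21 WT 2 or day 21 WT 3.

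Markers of other cells were called in several lists. Of 14 monocyte markers 9 were higher (3.15 to 7.23; median 5.20), with 8 falling in WT and 3 rising in KO. The count was 0 without naive WT 3, day 21 WT 2 or day 21 WT 3, 3 to 5 without naive KO 2, naive KO 4, naive WT 4, day 21 WT 1 or day 21 KO 1, 2 or 4, 4 with the i5 index as a block and 0 with the Y-linked covariate. Fn1, fibronectin, measured 421, 269 and 160 CPM in day 21 WT and 2027, 2443, 1799 and 2073 CPM in day 21 KO, but 48.1, 94.3, 644 and 161.9 CPM in naive WT, and its interaction missed the threshold (3.43, SE 1.10, adjusted p = 0.0509). Fn1 was called without naive WT 1 (adjusted p = 0.0270), naive WT 2 or naive KO 3 and by DESeq2. Of 11 border macrophage markers 5 were higher: Cd163, F13a1 (5.44), Ms4a7 (3.43), Clec10a (4.77) and Cd38 (5.70), with 2 without day 21 WT 2 and 1 without day 21 WT 3. In WT 9 of the 11 fell, and in KO 2 rose and 3 fell. Their summed level was 275.3 to 403 CPM in naive WT and 15.05 to 67.3 CPM in day 21 WT. In KO it was 29.0 to 300.1 CPM in naive libraries and 258 to 344.3 CPM at day 21. Of 16 neutrophil markers 15 fell in WT and 12 in KO. In the interaction Mmp8 (5.55) was called higher and Csf3r (-0.66) lower, with 15 of the 16 above 0 (median 3.97). DESeq2 called 5 higher and 1 lower. Mmp8 kept its edgeR call only without naive WT 1. Of 10 T and NK cell markers tested, Cd4 (2.94), Nkg7 (4.63) and Gzma (5.67) were higher (median 1.87). The list had 1 call without naive WT 3, naive WT 4, day 21 KO 1 or day 21 WT 2 and 0 without day 21 WT 3. Levels were low: all 17 markers of the list summed to 11.3 to 12.9 CPM in naive WT and 2.79 to 20.3 CPM in naive KO. At day 21 they summed to 5.42 to 10.9 CPM in WT and 36.4 to 50.2 CPM in KO.

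On the lower side stood Ighm (-1.01), Ighd (-1.59) and Cd79b (-1.61) of 5 B cell markers, with 1 call without day 21 WT 2. With the monocyte covariate these 3 were lost, and Igkc and Jchain were called lower. The list holds 10 markers, of which these 5 had enough counts to test. Among the others, Cd79a and Pax5 had 0 counts in day 21 WT and some counts in each other group. Ighm, the IgM heavy chain, measured 225, 238 and 221 CPM in day 21 WT and 113, 106, 133 and 131.6 CPM in day 21 KO (SE 0.23, adjusted p = 0.00854). Of 7 dendritic cell markers tested only Fscn1 was called, lower, and 2 had an interaction above 0 (median -0.14). Fscn1, an actin bundler of mature dendritic cells that these libraries hold at 304 to 567 CPM before EAE, measured 207.7, 185 and 192 CPM in day 21 WT and 64.2, 44.1, 58.5 and 51.7 CPM in day 21 KO (interaction -1.91, SE 0.32, adjusted p = 7.79e-04). Of 5 endothelial markers tested only Pecam1 (-0.73) was called, lower, while 4 had an interaction above 0 (median 0.26). Pecam1 kept its call only without naive WT 1, naive WT 2, naive KO 3, day 21 KO 3, day 21 KO 4 or day 21 WT 1. In 12 astrocyte and 9 oligodendrocyte markers edgeR called 0, with 0 at an unadjusted p under 0.05 and 0 by DESeq2. In 7 erythroid markers it called 0, with 5 lower unadjusted and 2 by DESeq2.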

How the data were processed

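RNA of sorted microglia was sequenced with a stranded low-input total RNA kit, per the labels' protocols. The authors deposited raw counts per gene; CASAVA, bcl2fastq, STAR and GRCm38 are named in the submitters' processing notes, and their versions, the counter and the strand setting were not given in the sources used here. Columns were joined to titles through plate wells, and 2 of 32 count columns were not used. The columns with bare-number headers were checked to hold whole numbers; EAE scores are those the authors gave in their deposited sample table. Symbols were found for 45143 of 46078 genes (98%), leaving 0.0552% of counts in genes without one.

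Genes passing filterByExpr (minimum count 10, total 15) were fitted in edgeR 4.0.16 (R 4.3.3) with TMM scaling, a robust quasi-likelihood fit over all 30 libraries each group having its own mean (22 residual degrees of freedom), and Benjamini-Hochberg adjustment over 13880 genes. SE is the size of the log2 fold change over the root of F. DESeq2 1.42.0 was an alternative. Scripts were tested on simulated data. Members and lists were chosen with earlier results of these data known. Named genes were Atg7, Cx3cr1, the 10 highest and 10 lowest interactions (group mean of at least 5 CPM, over 10 counts in each group), 5 opposite responses each way, 4 members per process list (2 where none was called) and 3 per marker list. Further members of short call lists, Sall1, Arg1 and Nos2 were named after their values were seen. Some genes that the rule named are not reported here, and the list counts include them.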

Additional observations from a re-analysis of the deposited data

Results flagged for a closer look

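In groups of 4 libraries, 1 library stood far from the other 3 a total of 14 times among 37 genes and 12 times among 34 lists, each checked in 3 groups, where chance gives about 1 group in 20. Naive KO 4 accounted for 10 and naive WT 3 for 9.

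Naive KO 4 was high in Cx3cr1 (291.5 CPM), immediate-early genes (7950), neuron markers (48.4) and p53 targets (872.8). It was low in Plin2 (16.6), H2-Ob (27.3), Pqlc3 (2.05), cell cycle genes (347.3), monocyte markers (42.5) and neutrophil markers (644.8). Naive WT 3 was high in Stat2 (67.8), Cxcl13 (2.54), Apoc2 (11.1), Plin2 (45.6), Zbtb16 (15.8), lipid handling (11520) and disease-associated genes (21880). It was low in Ighm (205.2) and B cell markers (283.7). Naive WT 2 was high in Timp2 (523.3) and astrocyte markers (240.4) and low in core autophagy genes (1414). Day 21 KO 4 was high in Atg7 (36.9) and low in Gbp7 (369.8), and day 21 KO 3 was high in Irgm1 (226.0) and in microglia and macrophage markers (15710). All values are CPM or summed CPM.

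The responses of the 2 genotypes differed by the test of the difference itself in 1343 genes. Of these, 25 fell in WT and rose in KO, and 16 rose in WT and fell in KO. The 5 named each way were Prim2 (1.60), Pqlc3 (3.09), Zbtb42 (4.02), Tpm4 (1.42), Zbtb16 (5.33), Lox (-4.67), Col6a3 (-2.11), Ajm1 (-2.11), Cdh23 (-1.25) and P3h3 (-1.60), as interaction log2 fold changes.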

How the results depend on the processing

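The genotype by day 21 interaction had 1343 calls. It had 845 with no filter on low counts, 2516 with only the 4 groups in the fit, 637 with the Y-linked covariate and, as alternatives chosen after seeing the data, 42 with the monocyte marker covariate and 519 without naive KO 4 and naive WT 3 (477 shared with the 1343). Leaving out 1 library gave 514 to 1639. RLE scaling gave 1332, upper-quartile scaling 1421, DESeq2 1834 and the neutrophil covariate 1039. Upper-quartile scaling moved the share of calls that were higher from 48.8% to 41.2%. For the WT response, day 21 minus naive, leaving out 1 library gave 1727 to 3099 calls, with 1933 without day 21 WT 1. For the KO response, day 21 minus naive, it gave 5475 to 6267, and the monocyte covariate gave 3976. The causes were not tested. With the monocyte covariate the interaction changed sign in Atg7 (-0.10), Birc5 (-0.29), Il1rn (-0.15), Cybb (-0.71), S100a9 (-1.38), Fn1 (-1.13), Csf1r (0.08), Mylip (0.00), Prdx6 (-0.11), Nkg7 (-0.54), Arg1 (-3.31) and Nos2 (-1.82). Over the named genes and all settings, 2162 values kept direction and side of the threshold, 562 lost the call and 10 gained one. No paired analysis was possible because the labels carry no replicate numbers; the i5 index as a block gave 926 calls.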
